A study of Mus musculus with 9 samples.

Results

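The genes described here are 10 members of the VEGF and angiopoietin-Tie pathways: the receptor phosphatase Ptprb (also called VE-PTP), the receptor Tek (Tie2), the angiopoietins Angpt1, Angpt2 and Angpt4, the VEGF ligands Vegfa, Vegfc and Vegfd, and the VEGF receptors Kdr (VEGFR2) and Flt1 (VEGFR1). They were selected by symbol from the 38924 genes of the count table, and the selection was made on these same data: that Ptprb is abundant, and that Ptprb fell and Kdr rose in Gata4 knockdown, was part of the reason for choosing them. All values of the 10 genes in Gata4 knockdown against control are therefore given as a description, with no test. The 10 symbols each matched 1 gene, and all 10 had enough reads to be kept in every comparison.

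RNA was sequenced from cardiac fibroblasts of adult mice, 8 to 10 weeks old, on a C57BL/6 background. The animals carry a ROSA transgene for the Cas9 nuclease and EGFP, so the cells of every group, controls included, made both proteins. Cells were cultured for 3 days, sorted as CD45-CD31-CD90+, replated, and given guide RNAs by lipid transfection after 6 further days. There were 3 libraries (a, b and c) in each of 3 groups: control, with scrambled guides; Gata4 KD, with 2 guides against Gata4; and Tbx20 KD, with 2 guides against Tbx20. Gata4 and Tbx20 encode transcription factors of the developing heart. A culture transfected in this way can be a mixture of edited and unedited cells, and the libraries of a group are described in the study as biological replicates. Whether they came from separate animals is not stated in the labels, and the p-values measure the spread between these libraries.

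VEGF ligands and angiopoietins are secreted proteins that control the growth and stability of blood and lymphatic vessels. VEGF-A acts on endothelial cells mainly through Kdr, while Flt1 binds it tightly and limits the amount that reaches Kdr, and VEGF-C and VEGF-D act mainly through Flt4 (VEGFR3) on lymphatic vessels. Angpt1 activates the receptor Tek, Angpt2 can oppose it, and Ptprb removes phosphate from Tek and from other endothelial proteins. Fibroblasts and other cells around vessels are known mainly as sources of the ligands, whereas Tek, Kdr, Flt1 and Ptprb are best known from endothelium, which the sort against CD31 was meant to remove.

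The guides are shown because they define the groups in which the 10 genes were compared. Each is written 5′ to 3′ in lower case with the adjoining PAM, the 3 bases that Cas9 needs beside its target, in capitals. Each of the 4 was matched to the coding part of an exon in GENCODE M21 on GRCm38, at chr14:63204711-63204730 on the minus strand and chr14:63240581-63240600 on the plus strand for Gata4, and at chr9:24770708-24770727 on the minus strand and chr9:24765732-24765751 on the plus strand for Tbx20. None of the 4 occurred as an exact match, on either strand, in a transcript of the 10 genes.
Gata4_sgRNA1: cagagagtgtgtcaattgtgGGG
Gata4_sgRNA3: gcaggactgggctgtcgaagGGG
Tbx20_sgRNA2: caaattccatgaactgggcaCGG
Tbx20_sgRNA3: gagctgctcgccagtaaaggGGG

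The depth of the 9 libraries lay between 31214828 and 41950397 counts (median 36270725). The targeted transcripts were checked first. Gata4 was at 155 to 167 CPM (reads scaled to library size, with TMM factors over all 9 libraries) in control and at 46.7 to 65.5 CPM in Gata4 KD. Tbx20 was at 720 to 1275 CPM in control and at 320 to 428 CPM in Tbx20 KD. Neither target overlapped its controls. The fall of Gata4 passed edgeR's quasi-likelihood test (log2 fold change -1.55, SE 0.12, adjusted p = 0.00272), and that of Tbx20 did not (log2 fold change -1.35, SE 0.21, adjusted p = 0.748). In Gata4 KD, Tbx20 was at 513 to 908 CPM and overlapped control (log2 fold change -0.52, SE 0.24, by the same test, adjusted p = 0.636). In Tbx20 KD, Gata4 was at 178 to 198 CPM, above every control library (log2 fold change 0.23, SE 0.07, by the same test, adjusted p = 0.9997). The 2 knockdowns thus differed from each other in the levels of both genes. The labelled cell type was checked on marker genes. All 8 fibroblast markers had a mean above 1 CPM, and their summed level was 5948 to 6641 CPM in control, 4484 to 6337 CPM in Gata4 KD and 5642 to 6868 CPM in Tbx20 KD. The corresponding counts of markers above 1 CPM were 7 of 12 for endothelial cells, 2 of 4 for lymphatic endothelium, 4 of 8 for pericytes and mural cells, 7 of 7 for macrophages and blood, 4 of 6 for epicardium and 0 of 5 for cardiomyocytes.

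Promoter windows are shown for Kdr and Vegfa because they are the genes with such a window whose Gata4 KD libraries did not overlap the control libraries. RefSeq promoter windows on GRCm38.p6, reaching from 250 bases before to 50 bases after the start, were found for 7 of the 10 genes, with 8 windows in all because Vegfa has 2. Ptprb, Angpt1 and Angpt2 had none. The windows were searched on both strands for GATA sites, of the letters AGATAA or ending in a G as AGATAG, or starting with a T as TGATAA and as TGATAG. They were also searched for the T-box half-site, AGGTGT, and for the hypoxia core in its forms ACGTG and (with G first) GCGTG. None of the motifs overlapped another in these windows. Capitals mark every match.
Kdr, chr5:75978406-75978705, minus strand: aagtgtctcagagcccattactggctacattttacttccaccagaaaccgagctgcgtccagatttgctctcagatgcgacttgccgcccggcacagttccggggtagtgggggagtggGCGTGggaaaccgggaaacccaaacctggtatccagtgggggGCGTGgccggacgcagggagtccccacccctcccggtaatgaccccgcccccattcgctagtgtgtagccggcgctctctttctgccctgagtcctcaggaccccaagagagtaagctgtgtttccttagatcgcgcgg
Vegfa, upstream start, chr17:46032328-46032627, minus strand: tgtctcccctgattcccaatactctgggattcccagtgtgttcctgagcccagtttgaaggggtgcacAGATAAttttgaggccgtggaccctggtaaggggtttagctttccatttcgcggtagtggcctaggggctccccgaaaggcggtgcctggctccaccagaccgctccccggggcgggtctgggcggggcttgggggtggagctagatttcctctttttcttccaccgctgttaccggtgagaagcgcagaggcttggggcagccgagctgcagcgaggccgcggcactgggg
Vegfa, downstream start, chr17:46025114-46025413, minus strand: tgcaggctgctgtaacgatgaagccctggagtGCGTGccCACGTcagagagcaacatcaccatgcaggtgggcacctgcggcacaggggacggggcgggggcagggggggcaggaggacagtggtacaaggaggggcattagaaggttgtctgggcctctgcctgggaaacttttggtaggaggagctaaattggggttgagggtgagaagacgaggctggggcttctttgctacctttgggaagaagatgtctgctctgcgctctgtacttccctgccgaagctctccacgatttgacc

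The Kdr window held 2 hypoxia cores and no GATA site. The upstream Vegfa window held 1 GATA site, which began at position -182 from the start, and the downstream window held 2 hypoxia cores. Of the other windows, those of Tek and Vegfd each held 1 GATA site, that of Angpt4 held 4 hypoxia cores and that of Flt1 held 1, and the Vegfc window held none of the motifs. The T-box half-site was in none of the 8 windows. Of the 32817 distinct promoter windows in the table, 29.8% held a GATA site, 13.7% the T-box half-site and 43.8% a hypoxia core, so matches of these kinds are common. They describe letters in the window and do not show binding.

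The 10 genes were expressed at very different levels. Compared per length of exon, in CPM per kb, the highest were Vegfa (median over 9 libraries 35.3, range 30.8 to 42.7), Vegfd (32.1, 24.7 to 47.7) and Ptprb (30.7, 19.0 to 35.4), whose ranges overlapped. By its mean level per kb, Ptprb stood at the 87.8th percentile of the 14782 genes kept over all libraries. Then came Vegfc (7.60, 5.08 to 9.58) and Tek (5.84, 3.43 to 7.57), which overlapped each other, and then Angpt2 (1.74, 1.23 to 2.44) and Angpt1 (1.32, 1.07 to 2.11), which also overlapped. Kdr (0.356, 0.253 to 0.686), Flt1 (0.329, 0.230 to 0.376) and Angpt4 (0.215, 0.0709 to 0.396) were lowest, with overlapping ranges. Neighbouring ranges did not overlap between Ptprb and Vegfc, between Tek and Angpt2, or between Angpt1 and Kdr. When the longest transcript was used as the length instead, Kdr and Flt1 exchanged places and the order was otherwise the same.

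**Figure D1:**
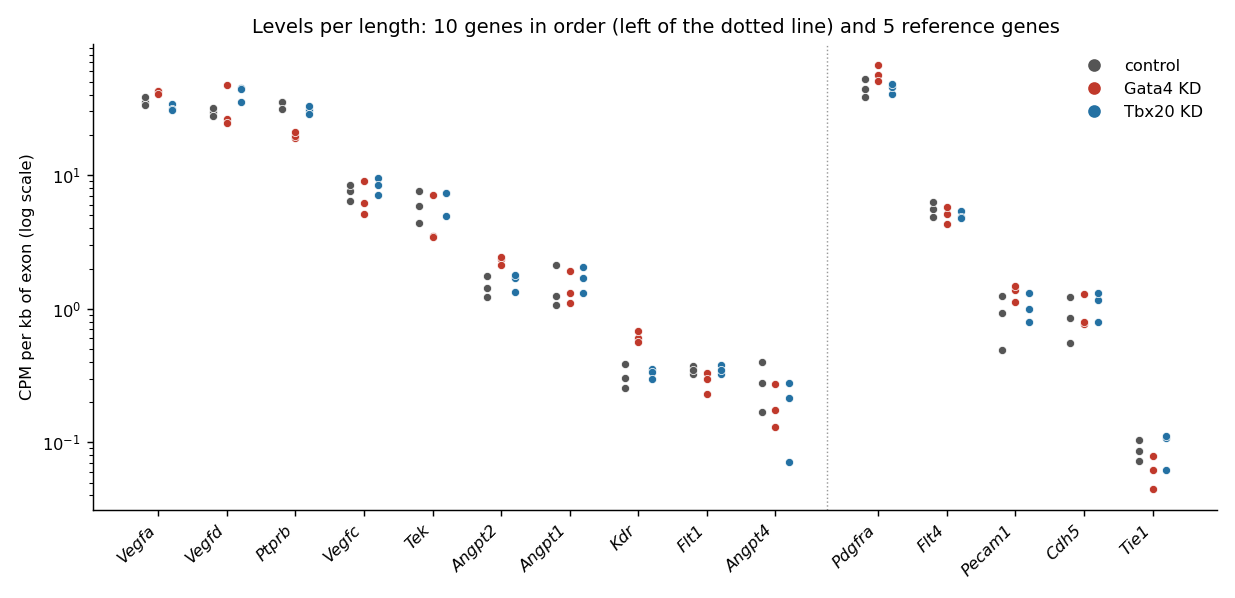
Level of each gene in CPM per kb of exon (log scale) in the 9 libraries, each point 1 library, for the 10 genes in order of their median and for 5 reference genes right of the dotted line. Vegfa, Vegfd and Ptprb have medians of 30.7 to 35.3 CPM per kb, below that of the fibroblast receptor Pdgfra (48.2). Kdr, Flt1 and Angpt4 lie below 1 CPM per kb.

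The endothelial genes offer a scale for these levels. Pecam1, which encodes CD31, had a median of 1.12 CPM per kb, and Cdh5, which encodes VE-cadherin, had 0.846 CPM per kb. Pdgfra, a receptor of fibroblasts, had 48.2 CPM per kb. Thus Ptprb and Tek were above both endothelial genes per length in every library, and Kdr and Flt1 were below the median of either. Flt4, the receptor of VEGF-C and VEGF-D, was at 5.15 CPM per kb (4.29 to 6.35), a level whose range overlapped that of Tek, whereas Tie1, the partner of Tek in endothelium, was at 0.0788 CPM per kb (0.0448 to 0.111). Of the 12 endothelial markers, none was at 0 in every library, but Cldn5 and Sox17 had means of at most 0.103 CPM in each group. The summed level of the 12 was 17.1 to 25.3 CPM in control, 23.9 to 27.3 CPM in Gata4 KD and 22.5 to 25.1 CPM in Tbx20 KD, and none of the 10 that could be tested passed in a comparison. In bulk RNA, fewer cells of a type and less RNA per cell cannot be told apart.

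Ptprb (ENSMUSG00000020154, chr10:116275523-116389535, plus strand), a receptor-type tyrosine phosphatase, was at 473, 472 and 416 CPM in control a, b and c, at 254, 262 and 281 CPM in Gata4 KD and at 409, 382 and 437 CPM in Tbx20 KD. All 3 Gata4 KD libraries were below all other libraries, and the Tbx20 KD libraries overlapped the controls. The level was 41.5% lower in Gata4 KD than in control (log2 fold change -0.77, SE 0.09), and leaving out each library in turn gave -0.83 to -0.73. These are the values on which the gene was selected. Against Tbx20 KD, where Ptprb is also given without a test, the log2 fold change was -0.63 (SE 0.07). In Tbx20 KD against control it was -0.14 (SE 0.09) and did not pass (edgeR's quasi-likelihood test, adjusted p = 0.9997). These controls also entered the contrast on which Ptprb was selected. Between 8061 and 17628 reads were counted per library, and none of the 13257 windows of 75 bases in its transcripts occurred in another gene.

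Kdr (ENSMUSG00000062960, chr5:75932827-75978458, minus strand), the main signalling receptor of VEGF-A, was at 2.75, 3.47 and 2.29 CPM in control, at 5.45, 6.19 and 5.06 CPM in Gata4 KD and at 3.22, 3.04 and 2.68 CPM in Tbx20 KD. The Gata4 KD libraries were again apart from all others, here on the high side. The level was 1.96-fold that of control (log2 fold change 0.97, SE 0.19), with values of 0.84 to 1.14 when 1 library was left out, and the log2 fold change against Tbx20 KD was 0.90 (SE 0.13). Both are descriptions. Against control, Tbx20 KD gave 0.08 (SE 0.19, by edgeR's quasi-likelihood test, adjusted p = 0.9997). Kdr rested on 76 to 225 reads per library.

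Because Kdr is an endothelial receptor present here at a low level, endothelial genes are given beside it. Pecam1 was at 3.07, 7.75 and 5.81 CPM in control, at 8.66, 9.22 and 7.00 CPM in Gata4 KD and at 8.16, 4.98 and 6.17 CPM in Tbx20 KD. Cdh5 was at 2.31 to 5.15 CPM in control and at 3.24 to 5.42 CPM in Gata4 KD, and neither gene separated these groups. Of the 10 endothelial markers that could be tested in Gata4 KD against control, 8 had a positive and 2 a negative log2 fold change, with a median of 0.22 (-0.02 over all genes). The 2 were Egfl7 (means of 2.17 CPM in control and 1.93 CPM in Gata4 KD) and Icam2, both named after their values were seen. Icam2, an adhesion molecule of endothelium and blood cells, was the 1 marker of the 10 whose groups did not overlap (all genes: 13.8%). It was at 1.18 to 1.99 CPM in control and 0.468 to 0.787 CPM in Gata4 KD (log2 fold change -1.22, SE 0.31, by edgeR's quasi-likelihood test, adjusted p = 0.212). In Tbx20 KD against control, 8 of the 10 tested endothelial markers were higher and 2 lower, with a median of 0.14 (-0.00217 over all genes). Between the knockdowns, 5 were higher and 5 lower in Gata4 KD, with a median of 0.04 (-0.006 over all genes). The part of endothelial RNA in the level of Kdr was not tested.

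Flt1 (ENSMUSG00000029648, chr5:147561604-147726011, minus strand), the other VEGF-A receptor, did not follow Kdr. It was at 4.41, 5.01 and 4.67 CPM in control, at 4.44, 3.11 and 4.01 CPM in Gata4 KD and at 4.35, 5.08 and 4.71 CPM in Tbx20 KD. The groups overlapped, with log2 fold changes of -0.29 (SE 0.17) in Gata4 KD and 0.01 (SE 0.13) in Tbx20 KD against control.

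**Figure D2:**
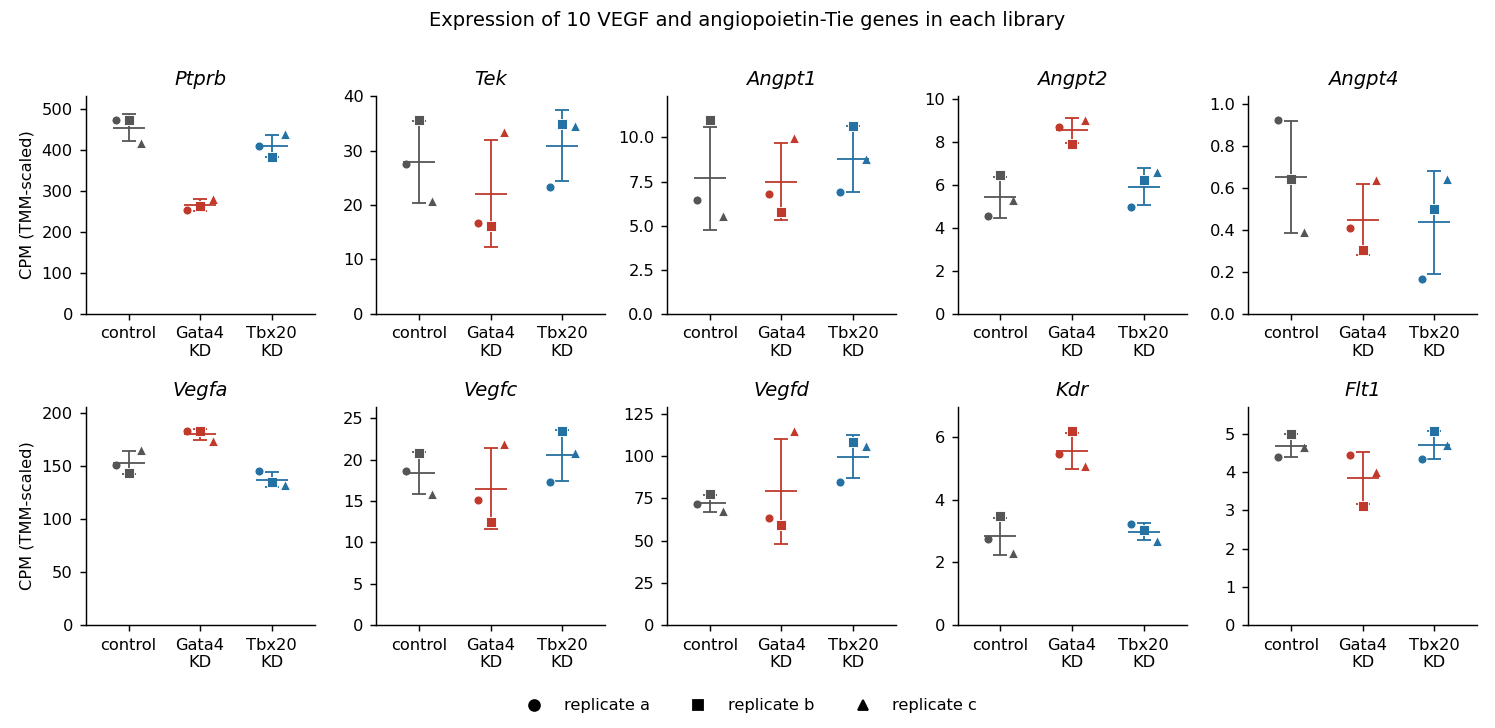
CPM of the 10 genes in each library, with a separate linear axis from 0 for each gene, markers for the replicates a, b and c, and bars for the mean ± SD of 3 libraries. Ptprb is lower and Kdr, Angpt2 and Vegfa are higher in all 3 Gata4 KD libraries than in any other library, and Tek and Vegfd show 1 Gata4 KD library (c) far above the other Gata4 KD libraries.

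Of the 10 genes, 4 had Gata4 KD and control libraries that did not overlap: Ptprb, which was lower, and Kdr, Angpt2 and Vegfa, which were higher. Over all 14468 genes fitted in that comparison, the groups did not overlap for 13.8%, and 0.380% of genes (29 higher and 26 lower) passed the test at an adjusted p under 0.05. Nothing is read from the 4, since this contrast was used in choosing the genes. The median log2 fold change of the 10 was -0.10, beside -0.02 over all genes.

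Angpt2 (ENSMUSG00000031465, chr8:18690263-18741562, minus strand), an angiopoietin that can block Tek, was at 4.54, 6.44 and 5.27 CPM in control, at 8.69, 7.90 and 9.02 CPM in Gata4 KD and at 4.94, 6.24 and 6.57 CPM in Tbx20 KD. The Gata4 KD libraries were above the 6 others. The log2 fold change against control was 0.66 (SE 0.15), as a description. Against Tbx20 KD it was 0.53 (SE 0.13), a difference that did not pass in edgeR's quasi-likelihood test (adjusted p = 0.103) but did in DESeq2 (adjusted p = 0.0195). In that comparison edgeR called 1.44% of all genes, and DESeq2 called more of them, as given in the closing sections.

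Vegfa (ENSMUSG00000023951, chr17:46016993-46032369, minus strand), the main ligand of Kdr, was at 151, 143 and 166 CPM in control, at 183, 183 and 173 CPM in Gata4 KD and at 145, 135 and 132 CPM in Tbx20 KD. Gata4 KD was highest and did not overlap the other groups, whereas Tbx20 KD overlapped control at its upper end. Against control, the log2 fold change was 0.23 (SE 0.08) in Gata4 KD, as a description, and -0.15 (SE 0.08) in Tbx20 KD, which did not pass. Vegfa was higher in Gata4 KD than in Tbx20 KD by a log2 fold change of 0.39 (SE 0.05, 1.31-fold, by edgeR's quasi-likelihood test, adjusted p = 0.0236), with all 3 Gata4 KD libraries above all 3 Tbx20 KD libraries.

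Vegfa was the 1 gene called among the 8 tested in that direct comparison of the knockdowns, which excluded Ptprb and Kdr and which shares its Gata4 KD libraries with the contrast used in choosing the genes. The share called over all 14477 genes was 1.44%. Groups did not overlap for 2 of the 8, Vegfa and Angpt2, beside 23.0% of all genes. Under 13 alternatives the Vegfa difference ranged from 0.36 to 0.43 and its adjusted p from 5.588e-07 to 0.142. It passed in 9 of them and did not when Gata4 KD a (adjusted p = 0.118), Gata4 KD b (0.0832), Tbx20 KD b (0.140) or Tbx20 KD c (0.142) was left out of edgeR's quasi-likelihood fit.

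Tek (ENSMUSG00000006386, chr4:94739289-94874976, plus strand), the angiopoietin receptor, was at 27.5, 35.7 and 20.7 CPM in control, at 16.6, 16.2 and 33.5 CPM in Gata4 KD and at 23.3, 34.8 and 34.6 CPM in Tbx20 KD. The groups overlapped through a single library, Gata4 KD c, whose level was close to the highest of the other groups. The log2 fold change against control was -0.34 (SE 0.30), and -0.75 without Gata4 KD c. Against Tbx20 KD it was -0.48 (SE 0.30, by edgeR's quasi-likelihood test, adjusted p = 0.459), and without Gata4 KD c it was -0.92 and passed (adjusted p = 0.0313). Without that library more of all genes passed as well, as given in the closing sections, and the cause of the gain for Tek was not tested.

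Vegfd (ENSMUSG00000031380, chrX:164373378-164402650, plus strand), a lymphatic growth factor also named Figf, showed the same library apart. It was at 71.6, 77.3 and 67.2 CPM in control, at 63.2, 59.4 and 115 CPM in Gata4 KD and at 84.8, 108 and 106 CPM in Tbx20 KD. The 3 Tbx20 KD libraries were above the 3 controls, and Gata4 KD held both the lowest and the highest values of all 9 libraries. In Gata4 KD against control the log2 fold change was 0.14 (SE 0.23), and it turned to -0.21 without Gata4 KD c. Against Tbx20 KD it was -0.33 (SE 0.25, by edgeR's quasi-likelihood test, adjusted p = 0.535), and without Gata4 KD c it was -0.71 and passed (adjusted p = 0.0173). As for Tek, this is the fit in which more of all genes passed.

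In Tbx20 KD against control, Vegfd had the largest positive log2 fold change of the 10 genes, 0.48 (SE 0.11), but it did not pass edgeR's quasi-likelihood test (unadjusted p = 0.00207, adjusted p = 0.9997). None of the 10 genes passed in this comparison, in which 0.00687% of 14547 genes did, and DESeq2 called none of the 10 either. The fall of the targeted Tbx20 did not pass edgeR's quasi-likelihood test here (log2 fold change -1.35, adjusted p = 0.748). A gene that did not pass in this comparison is therefore not shown to be unchanged. Vegfd was the 1 gene of the 10 with an unadjusted p under 0.05 and the 1 whose groups did not overlap, beside 6.74% of all genes. The median log2 fold change of the 10 was 0.11, beside -0.00217 over all genes. The Vegfd value stayed between 0.41 and 0.58 under 13 alternatives.

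Vegfc (ENSMUSG00000031520, chr8:54077606-54187096, plus strand), the closest relative of Vegfd, was at 18.6, 20.8 and 15.8 CPM in control, at 15.1, 12.4 and 22.0 CPM in Gata4 KD and at 17.4, 23.5 and 20.8 CPM in Tbx20 KD. Gata4 KD c was again the high library of its group, and the groups overlapped. Log2 fold changes were -0.16 (SE 0.20) in Gata4 KD and 0.17 (SE 0.14) in Tbx20 KD against control, and -0.31 (SE 0.21, by edgeR's quasi-likelihood test, adjusted p = 0.490) between the knockdowns.

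Angpt1 (ENSMUSG00000022309, chr15:42424723-42676977, minus strand), the activating ligand of Tek, was at 6.45, 11.0 and 5.57 CPM in control, at 6.77, 5.75 and 9.96 CPM in Gata4 KD and at 6.88, 10.7 and 8.77 CPM in Tbx20 KD. All groups overlapped. Its log2 fold change in Gata4 KD against control was -0.03 (SE 0.29) and moved between -0.27 and 0.32 as single libraries were left out, the lowest without Gata4 KD c and the highest without control b. Angpt1 therefore had no stable direction in that contrast, unlike Angpt2.

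Angpt4 (ENSMUSG00000027460, chr2:151911210-151945337, plus strand), a further ligand of Tek, was scarcely expressed. It was at 0.925, 0.644 and 0.392 CPM in control, at 0.409, 0.303 and 0.636 CPM in Gata4 KD and at 0.166, 0.501 and 0.644 CPM in Tbx20 KD, from 7 to 34 reads per library. At this depth the groups could not be separated. The log2 fold changes against control were -0.54 (SE 0.41) in Gata4 KD and -0.59 (SE 0.50) in Tbx20 KD.

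**Figure D3:**
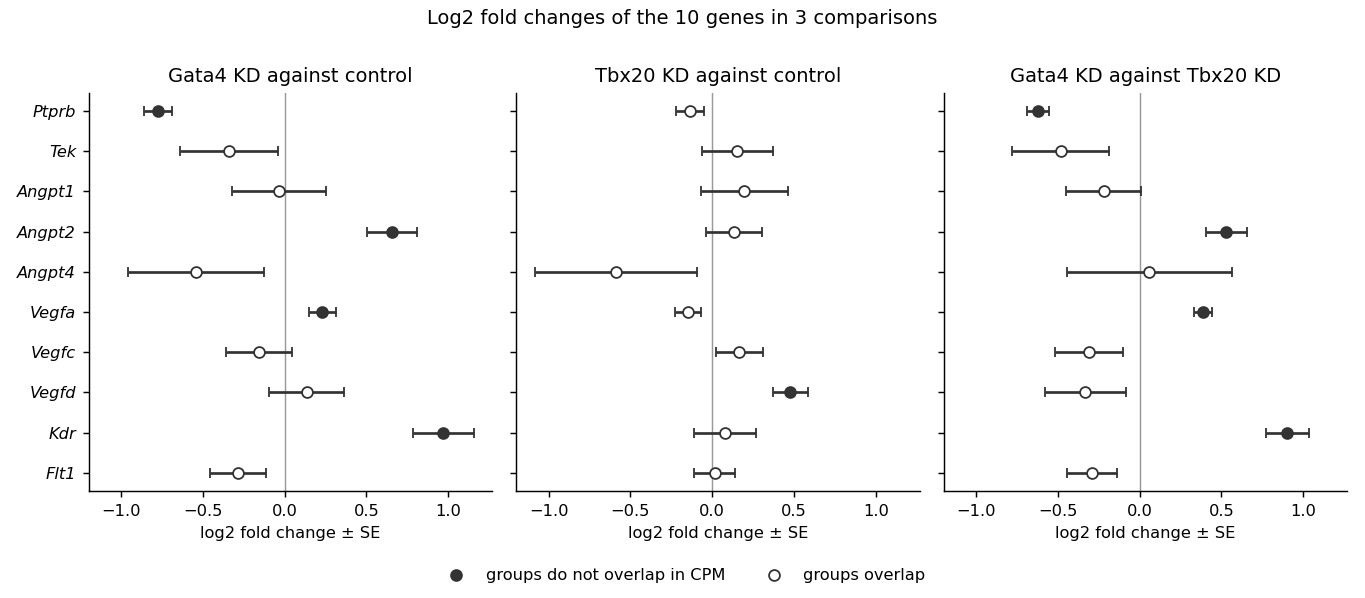
Log2 fold change of the 10 genes in the 3 comparisons, with bars of ± 1 SE from the edgeR fits and filled points where the CPM of the groups did not overlap. In Gata4 KD against control, which was used to choose the genes, Ptprb is at -0.77 and Kdr at 0.97, and in Tbx20 KD against control only Vegfd is filled.

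Apart from the groups, some of the 10 genes rose and fell together from library to library. Each gene's log2 CPM was set against the mean of its group, and the deviations were compared over the 9 libraries. For Tek, Pearson's r was 0.91 with Angpt1, 0.95 with Vegfc and 0.93 with Vegfd, and Vegfc and Vegfd had 0.93. Vegfa ran the other way, with -0.85 against Tek and -0.84 against Angpt1. Ptprb and Kdr took less part: with Tek, r was 0.61 for Ptprb and 0.05 for Kdr.

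The high libraries of this pattern were control b and Gata4 KD c, and the low ones were control c, Gata4 KD b and Tbx20 KD a. Tek deviated by 0.39 in control b and 0.68 in Gata4 KD c, and by -0.40 in control c and -0.38 in Tbx20 KD a. Tbx20 deviated in the same direction (r = 0.93 with Tek and 0.93 with Vegfc), as did 7 of the 8 fibroblast markers, whose r with Tek ran from -0.17 for Thy1 to 0.96 for Dcn (median 0.92). For 8 of the 12 endothelial markers the r with Tek was above 0, with a median of 0.47 and a range from -0.36 for Vwf to 0.90 for Emcn, and it was 0.74 for Cdh5 and -0.25 for Pecam1. All of these r are descriptions over 9 points that share libraries, scaling and depth within each library. The part of such variation between cultures in the group differences was not tested, and the values without Gata4 KD c are those given above for Tek and Vegfd.

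**Figure D4:**
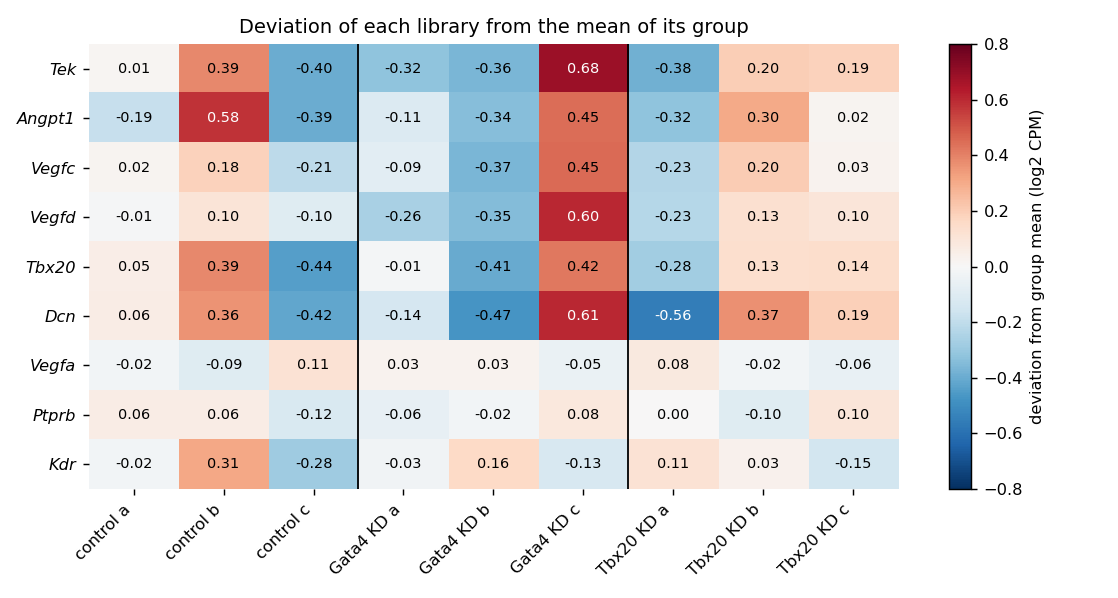
Deviation of log2 CPM from the mean of the library's own group, with red above and blue below the group mean. Shown are Tek, Angpt1, Vegfc, Vegfd, Vegfa, Ptprb and Kdr, with Tbx20 and Dcn as references. Tek, Angpt1, Vegfc and Vegfd share the sign of Tbx20 and Dcn in every library but control a, and in those libraries Vegfa has the opposite sign.

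For the genes whose levels were most like Ptprb and Kdr over the 9 libraries, Pearson's r of log2 CPM was taken against genes with a mean of at least 5 CPM. Nearest to Ptprb among 10031 candidates were Sft2d2 (0.982), Diras2 (0.981), Slc45a3 (0.971), Prex2 (0.969) and Tnnt2 (0.965). Tnnt2, which encodes cardiac troponin T, had means of 25.7 CPM in control, 8.28 CPM in Gata4 KD and 22.5 CPM in Tbx20 KD. Nearest to Kdr among 10032 were Fzd7 (0.982), Gucy1a2 (0.977), Frk (0.976), Jade1 (0.970) and Smad9 (0.970). Fzd7, a Wnt receptor, had means of 41.0, 57.8 and 41.9 CPM in the same order of groups. These r are taken over all libraries, so they include the differences between groups.

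The neighbours of Ptprb and Kdr on the chromosome were looked at next. Ptprr, a phosphatase gene that ends 0.591 kb before Ptprb on the same strand, had means of 0.121 CPM in control and 0.202 CPM in Gata4 KD, and 4933416C03Rik was at 0 in every library. On the far side, Kcnmb4 and Cnot2 had log2 fold changes of 0.19 (SE 0.37) and 0.01 (SE 0.08) in Gata4 KD against control. Next to Kdr, the values were -0.52 (SE 0.29) for the receptor gene Kit, 0.37 (SE 0.14) for Pdgfra, 0.17 (SE 0.09) for Srd5a3 and -0.03 (SE 0.13) for Tmem165. None of the 6 neighbours tested passed edgeR's quasi-likelihood test in a comparison, and in Gata4 KD against control the adjusted p lay between 0.485 for Pdgfra and 0.984 for Cnot2.

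The wider pathway was followed in 48 related genes outside the 10, a list chosen with earlier results of these data known. In Gata4 KD against control, 1 of 43 tested genes passed, in the upward direction (all genes: 0.380%). An unadjusted p under 0.05 was found for 10 of the 43, beside 8.54% of all genes. The gene that passed was Nr4a1, an immediate-early gene induced by VEGF and by many other signals, at 19.6, 26.0 and 24.0 CPM in control and 36.1, 42.3 and 42.2 CPM in Gata4 KD (log2 fold change 0.79, SE 0.12, by edgeR's quasi-likelihood test, adjusted p = 0.0493). The call was near the threshold and was lost in 8 of 13 alternatives, among them those that left out control a (adjusted p = 0.204), control c (0.123), Gata4 KD a (0.175), Gata4 KD b (0.196) or Gata4 KD c (0.0980). The median log2 fold change of the 43 was 0.04.

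In Tbx20 KD against control none of 43 related genes passed by edgeR or DESeq2, and 2 had an unadjusted p under 0.05 (all genes: 2.69%). Between the knockdowns 3 of 44 passed in edgeR's quasi-likelihood test, beside 1.44% of all genes, 2 higher in Gata4 KD and 1 lower. In the same test 19 of the 44 had an unadjusted p under 0.05 (all genes: 16.7%). The groups did not overlap for 17 of the 44 (all genes: 23.0%). Nr4a1 was higher (log2 fold change 1.23, SE 0.22, adjusted p = 0.0464), as was Angptl2, a secreted angiopoietin-like protein (0.40, SE 0.07, adjusted p = 0.0411). Angptl2 was at 131 to 138 CPM in Gata4 KD and 94.3 to 110 CPM in Tbx20 KD, and both overlapped control (102 to 135 CPM). Against control its log2 fold changes were 0.17 (SE 0.11) in Gata4 KD and -0.22 (SE 0.11) in Tbx20 KD, which did not pass. Ptprq, a phosphatase of the same family as Ptprb, was lower (-1.27, SE 0.16, adjusted p = 0.0174), at 1.10 to 1.44 CPM in Gata4 KD against 2.91 to 3.20 CPM in Tbx20 KD. Each of the 3 lost its call when Gata4 KD a (adjusted p 0.106 to 0.178), Gata4 KD b (0.0714 to 0.145), Tbx20 KD b (0.0909 to 0.183) or Tbx20 KD c (0.0671 to 0.221) was left out, and Angptl2 also without Tbx20 KD a (0.103). Nr4a1 further lost it with scaling by library size alone (0.0513) and Angptl2 with all 9 libraries in one fit (0.0991), and both lost it with the replicate block (0.0827 and 0.0720). Of 13 alternatives, the call was kept in 7 for Nr4a1, 6 for Angptl2 and 9 for Ptprq.

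By role, the related genes most abundant in their group did not pass in a comparison, except Angptl2, Nr4a1 and Ptprq. Among other receptors and co-receptors these were Itgb1, an integrin subunit (means of 1347, 1656 and 1345 CPM in control, Gata4 KD and Tbx20 KD), and Eng, a co-receptor of the TGF-beta family (578, 613 and 594 CPM). Among genes that bind, trap or process the ligands in the matrix they were Thbs1 (7784, 8465 and 6658 CPM) and Ccn2 (1327, 1398 and 1237 CPM), among signalling proteins the kinase Akt1 (317, 304 and 304 CPM) and the adaptor Shc1 (232, 268 and 234 CPM), and among phosphatases Ptprj, the relative of Ptprb (65.9, 64.7 and 65.8 CPM). Angptl4 was the second of the ligands (29.0, 29.1 and 26.8 CPM), and Esm1 the first of the genes induced by VEGF (30.4, 29.6 and 38.6 CPM). Ptprb was thus the R3 phosphatase with the highest level per length, at 30.7 CPM per kb beside 7.87 for Ptprj and 0.377 for Ptprq.

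Nrp1, a co-receptor that binds VEGF-A beside Kdr, is named here after its values were seen. It was at 99.3, 112 and 96.1 CPM in control, at 168, 176 and 132 CPM in Gata4 KD and at 119, 105 and 111 CPM in Tbx20 KD. Gata4 KD did not overlap the other groups. The differences did not pass in edgeR's quasi-likelihood test, with log2 fold changes of 0.63 (SE 0.12, adjusted p = 0.0992) against control and 0.51 (SE 0.11, adjusted p = 0.0787) against Tbx20 KD.

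Since Vegfa is induced by low oxygen, 27 genes of the hypoxia response were set beside it. None of the 26 that could be tested passed in either knockdown against control by edgeR, beside 0.380% and 0.00687% of all genes. An unadjusted p under 0.05 was found for 4 in Gata4 KD and 1 in Tbx20 KD (all genes: 8.54% and 2.69%), while DESeq2 called 1 in each. The median log2 fold changes of the 26 were -0.03 in Gata4 KD and -0.03 in Tbx20 KD. Between the knockdowns 1 of 26 passed in edgeR's quasi-likelihood test (all genes: 1.44%), namely Ndrg1, which was lower in Gata4 KD than in Tbx20 KD (log2 fold change -0.68, SE 0.10, adjusted p = 0.0247). Ndrg1 was at 25.4 to 28.6 CPM in control, 21.7 to 26.7 CPM in Gata4 KD and 34.7 to 40.3 CPM in Tbx20 KD. Gata4 KD overlapped control (log2 fold change -0.22, SE 0.11), whereas Tbx20 KD lay above it (0.47, SE 0.09), and neither difference from control passed. The call between the knockdowns was lost without Gata4 KD a, Gata4 KD b, Tbx20 KD b or Tbx20 KD c. Egln3, a prolyl hydroxylase that senses oxygen, is named here after its values were seen. It was at 4.62 to 6.20 CPM in control, 7.77 to 15.5 CPM in Gata4 KD and 4.66 to 5.46 CPM in Tbx20 KD. Its Gata4 KD libraries did not overlap the other groups, but by edgeR's quasi-likelihood test it did not pass against control (log2 fold change 1.09, SE 0.25, adjusted p = 0.166) or against Tbx20 KD (1.28, SE 0.24, adjusted p = 0.0527). The most abundant hypoxia genes, Eno1 (means of 1073, 1052 and 974 CPM in control, Gata4 KD and Tbx20 KD) and Aldoa (584, 576 and 558 CPM), did not pass.

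Of the markers of other cell types, 1 of 29 tested passed in Gata4 KD against control (all genes: 0.380%): Lrrn4, a gene of the mesothelium and epicardium, at 15.7 to 32.5 CPM in control and 2.09 to 2.74 CPM in Gata4 KD (log2 fold change -3.38, SE 0.27, by edgeR's quasi-likelihood test, adjusted p = 0.00272). The summed epicardial markers were at 25.5 to 49.2 CPM in control, 9.43 to 17.1 CPM in Gata4 KD and 27.1 to 44.0 CPM in Tbx20 KD. Most of this difference was Lrrn4 itself. Without it the sums were 9.77 to 16.7 CPM in control, 7.11 to 15.1 CPM in Gata4 KD and 7.29 to 12.1 CPM in Tbx20 KD, and overlapped. The means of Krt19 (6.70 CPM in control and 8.55 CPM in Gata4 KD) and Wt1 (0.747 and 0.819 CPM) were higher in Gata4 KD. Those of Upk3b (2.43 and 0.854 CPM), Upk1b (3.31 and 1.49 CPM) and Msln (0.168 and 0.0485 CPM) were lower. The groups did not overlap for Upk3b and Upk1b (all genes: 13.8%). Neither passed edgeR's quasi-likelihood test (adjusted p = 0.247 and 0.201), and Msln had too few reads to be tested. The part of epicardial cells in the level of Ptprb was not tested. The summed levels of macrophage and blood markers were 38.7 to 46.5 CPM in control, 25.1 to 42.1 CPM in Gata4 KD and 37.8 to 54.5 CPM in Tbx20 KD, those of mural markers 84.0 to 91.6, 74.6 to 94.7 and 82.8 to 91.2 CPM, and those of lymphatic markers, nearly all Flt4, 42.2 to 53.8, 37.5 to 49.6 and 41.5 to 46.4 CPM. The mural and macrophage lists each held 1 marker whose Gata4 KD and control groups did not overlap, named after the values were seen. Rgs5 was higher (means of 2.63 CPM in control and 5.01 CPM in Gata4 KD) and Csf1r was lower (10.0 and 6.43 CPM). Neither passed edgeR's quasi-likelihood test (adjusted p = 0.265 and 0.236). Summed cardiomyocyte markers stayed between 0.498 and 1.66 CPM in all libraries. Ccl21a of lymphatic endothelium and Nppa of cardiomyocytes were the markers at 0 in every library.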

How the data were processed

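Per the labels and the study's methods, the authors trimmed stranded 75 base single-end reads by quality, aligned them with Bowtie through RSEM and deposited RSEM's expected counts for each gene, which are whole numbers here and were not scaled. The labels name mm9 and the methods GRCm38. RSEM shares reads among genes they match, but no 75 base window of the 10 genes occurred in another gene. Symbols, positions and exon lengths came from GENCODE M21 (GRCm38), which may not be the authors' annotation, and promoter windows from RefSeq. No column of the table was left out.

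The 10 genes and all gene lists (related, hypoxia and marker genes) were chosen with earlier results of these data known. For each pair of groups, edgeR 4.0.16 (R 4.3.3) was run on the rounded counts of its 6 libraries: filterByExpr, TMM factors, quasi-likelihood F test, and Benjamini-Hochberg adjustment over all genes tested with a threshold of 0.05. With 3 against 3 libraries, an exact permutation test of 1 gene cannot go below p = 0.1. CPM was scaled over all 9 libraries, and log2 CPM used a prior count of 2. Named were the 10 genes, the targets, listed genes past the threshold, the most abundant listed genes, and the nearest genes by likeness and by position. The procedure was tested on simulated counts.

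Alternatives were DESeq2 1.42.0, scaling by library size alone, keeping every gene with any count, keeping genes above 1 CPM in 2 or more libraries, limma-voom (limma 3.58.1), all 9 libraries in one fit, a replicate block, and leaving out each library.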

Additional observations from a re-analysis of the deposited data

Results flagged for a closer look

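Results in which the effects of the 2 knockdowns differed by a test of the difference itself, Gata4 KD against Tbx20 KD in edgeR's quasi-likelihood test, are given as log2 fold changes. Among the 10 genes this was Vegfa, with 0.39. Among related and hypoxia genes it was Angptl2, with 0.40, Ptprq, with -1.27, Nr4a1, with 1.23, and Ndrg1, with -0.68. In each of them all 3 Gata4 KD libraries lay on one side of all 3 Tbx20 KD libraries. Groups of 3 libraries are too small for the test of single outlying samples, so Gata4 KD c was not put to one.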

How the results depend on the processing

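Of 284 tested single-gene values under alternatives, 246 kept their direction and side of the threshold, 29 lost and 3 gained a call and 6 changed sign, those 6 when 1 library was left out and at adjusted p of at least 0.6695. Of 155 values given as descriptions, which have no threshold, 5 changed sign, all in Gata4 KD against control: Angpt1 without control b (0.32), Gata4 KD a (0.0415) or Gata4 KD b (0.13), Vegfc without Gata4 KD b (0.0117) and Vegfd without Gata4 KD c (-0.21). Over the fits without 1 library the log2 fold change in Tbx20 KD against control ran from -0.0186 (without control c) to 0.3742 for Tek, from -0.0484 (without control c) to 0.258 for Kdr and from -0.0434 (without Tbx20 KD b) to 0.0709 for Flt1, which was also below 0 without control a (-0.0347). Between the knockdowns, Angpt4 ran from -0.3547 (without Tbx20 KD a) to 0.4867 and was -0.2921 without Gata4 KD c. The cause was not tested. Reads per library were few for Angpt4 (7 to 34), Kdr (76 to 225) and Flt1 (113 to 190), but Tek, Vegfc and Vegfd, which also changed sign, had more. With 3 libraries a group a fit without 1 library has fewer samples.

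Called genes, in the order Gata4 KD against control, Tbx20 KD against control and Gata4 KD against Tbx20 KD, were 55, 1 and 208 of all genes. DESeq2 called 273, 10 and 761, no filter gave 121, 2 and 324, and all 9 libraries in one fit gave 148 in the first. Leaving out 1 library gave 6 (without control a) to 189 (without control b), 1 to 5 (without control b) and 22 (without Gata4 KD a) to 801 (without Gata4 KD c). Of related genes, 1, 0 and 3 were called; DESeq2 gave 5 and 12 in the first and the last, no filter 3 and 5, the CPM filter 0 in the first, and one fit 2 in the first. Leaving out 1 library gave 0 to 3 and 0 to 9, the highest both without Gata4 KD c. Of hypoxia genes, 0, 0 and 1 were called; DESeq2 gave 1, 1 and 4, no filter 1 and 2 in the first and the last, one fit 2 in the last, and leaving out 1 library 0 to 1 and 0 to 3. Of the members of the 2 pathways tested between the knockdowns, DESeq2 called 2 (Vegfa and Angpt2) and leaving out 1 library gave 0 to 3. None of the 10 was called in Tbx20 KD against control under the alternatives run.

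Groups share the letters a, b and c, but same-letter libraries did not deviate together (r of -0.17 to 0.25), so the letters were not taken as pairs. With the replicate block, 5, 2 and 101 of all genes and 0, 0 and 1 of the related genes were called, and between the knockdowns Vegfa (adjusted p = 0.0451 in edgeR) and Ptprq (0.0482) kept their calls while Nr4a1 (0.0827) and Angptl2 (0.0720) lost theirs.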
